A study of Mus musculus with 12 samples.

Results

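The variant PRC1 subunits were followed at the level of RNA as 10 genes, *Kdm2b*, *Bcor*, *Pcgf1*, *Pcgf3*, *Pcgf5*, *Yaf2*, *Pcgf6*, *E2f6*, *Mga* and *L3mbtl2*, taken by name as known subunits of these complexes, with earlier results of these data already known. They made up 10 of the 16432 genes that could be tested and had 25 probe sets, all of which passed the filter on low signal. RNA of 6 lines of mouse embryonic stem cells (ESCs) of 129/B6 hybrid background was hybridised to Affymetrix mouse genome arrays, with 1 array before and 1 array on day 2 of treatment with 4-hydroxytamoxifen (OHT) for each line, 12 arrays in all. All lines are *Ring1A*-/- and carry *Ring1B* fl/fl alleles and R26::CreERT2, a Cre recombinase expressed from the Rosa26 locus that OHT activates, so OHT (800 nM for 24 h) removes the endogenous *Ring1B* in cells that already lack *Ring1A*. The lines were stable transfectants: 1 mock line, 3 mutant lines (Ring1B (I53S) #1 and #4 and Ring1B (I53A) #1) and 2 lines with WT Ring1B (#1 and #3). I53S and I53A exchange a residue on the face of the RING domain that receives the E2 enzyme and are used to take away the ubiquitin ligase activity of Ring1B. The constructs carried a Flag tag, were driven by the constitutive CAG promoter and were kept by puromycin selection, and each line is 1 transfectant, so that the mock class and the I53A form are each known from 1 line. Cells were grown on feeder fibroblasts or on gelatin, and which was used for these RNAs is not stated in the labels or methods.

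PRC1 puts ubiquitin on histone H2A through Ring1A or Ring1B, each of which pairs with 1 of several Pcgf proteins. In canonical PRC1 that partner is Pcgf2 or Bmi1, bound with Cbx and Phc proteins, whereas variant PRC1 holds Rybp or Yaf2 in place of Cbx. Variant complexes are told apart by their Pcgf protein: Pcgf1 assembles with Bcor and with Kdm2b, which binds unmethylated CpG islands, Pcgf3 and Pcgf5 assemble with Auts2-type proteins, and Pcgf6 assembles with L3mbtl2, E2f6, Mga and Max, which keep many germ cell genes silent in ESCs.

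The sequence just before the transcription start is shown for *E2f6*, the 1 member called in mutant lines, and for *Slc25a31*, *Mael* and *Ddx4*, germ cell genes known as targets of the Pcgf6 complex whose signals were called here with the largest changes beside *Tex101*. The windows are the 250 bases before the start in RefSeq on GRCm38.p6, at chr12:16810715-16810964 (plus strand) for *E2f6*, chr3:40708621-40708870 (plus strand) for *Slc25a31*, chr1:166238745-166238994 (minus strand) for *Mael* and chr13:112652311-112652560 (minus strand) for *Ddx4*. Capitals mark TCCCGC or its complement GCGGGA, letters typical of an E2F motif, and CACGTG, the E-box letters that Mga and Max bind.
E2f6: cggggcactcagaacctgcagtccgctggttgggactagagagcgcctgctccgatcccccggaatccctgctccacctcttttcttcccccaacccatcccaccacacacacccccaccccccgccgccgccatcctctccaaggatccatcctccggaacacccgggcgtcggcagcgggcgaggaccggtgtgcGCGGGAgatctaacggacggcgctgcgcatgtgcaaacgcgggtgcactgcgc
Slc25a31: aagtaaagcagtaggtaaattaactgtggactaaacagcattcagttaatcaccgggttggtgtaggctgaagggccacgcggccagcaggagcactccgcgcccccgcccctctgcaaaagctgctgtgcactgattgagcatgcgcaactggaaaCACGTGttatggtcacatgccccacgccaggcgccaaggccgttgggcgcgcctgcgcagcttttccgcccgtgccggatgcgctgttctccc
Mael: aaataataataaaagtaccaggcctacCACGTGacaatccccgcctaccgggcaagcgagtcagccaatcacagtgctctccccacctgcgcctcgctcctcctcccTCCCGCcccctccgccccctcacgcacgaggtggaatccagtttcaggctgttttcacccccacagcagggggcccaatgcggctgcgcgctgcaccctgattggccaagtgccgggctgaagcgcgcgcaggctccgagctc
Ddx4: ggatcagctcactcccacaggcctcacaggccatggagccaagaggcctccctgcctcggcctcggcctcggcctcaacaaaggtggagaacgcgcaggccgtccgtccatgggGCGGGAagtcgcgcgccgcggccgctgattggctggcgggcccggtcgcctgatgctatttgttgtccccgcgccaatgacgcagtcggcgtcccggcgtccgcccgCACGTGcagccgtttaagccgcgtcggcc
TCCCGC on either strand was found once in the *E2f6* window and in some window of 3 of the 8 members with an entry (*E2f6*, *Kdm2b* and *Pcgf5*), against 16.9% of all 32851 windows and 18.8% of all genes. CACGTG, which does not overlap TCCCGC in the windows shown, was found in 0 of the 8 members and in 9 of the 14 listed germ cell genes (64.3%), against 6.02% of all windows and 6.86% of all genes. *Tex101* and *Dazl*, which also have a place in the results on germ cell genes, held neither. The *E2f6* window held 24 CG dinucleotides and the *Bcor* windows 16 and 17, against a median of 6 over all windows. At least 24 were in 12% of all windows and at least 16 in 25.4%. Windows of the other members held from 4 (*Pcgf5*) to 38 (*Kdm2b*). A match to these letters is a description and not a measured binding site, and *Pcgf1* and *Yaf2* had no entry.

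All levels given are log2 signals after quantile normalization of the arrays, and a change is the day 2 signal minus the signal before OHT, so that 1 unit is a doubling. Correlations between arrays were 0.966 to 0.989. The deposited medians ran between 4.66 and 5.67, and without quantile normalization the median change over all genes was -0.34 in mock cells, between -0.18 and -0.07 in mutant lines and -0.03 and 0.04 in WT lines. Quantile normalization sets these medians near 0. The 10 ESC markers stood above the median level of all signals on every array, with array means of 11.05 to 11.21 in mutant lines on day 2 against 11.15 to 11.39 before OHT. *Rnf2*, which encodes Ring1B, read 7.06 in mock cells, 7.23, 7.31 and 7.29 in mutant lines (I53S #1, I53S #4 and I53A, an order kept throughout) and 7.32 and 7.16 in WT lines on day 2, and its change was not called in any class of line (adjusted p 0.574 for the mock, 0.722 for the mutant and 0.948 for the WT lines, limma). *Ring1*, which encodes Ring1A, had changes of 0.16 in mutant lines, -0.05 in mock cells and 0.24 in WT lines (adjusted p 0.593 for the mutant, 0.941 for the mock and 0.847 for the WT lines). Where the probe sets of both genes lie relative to the deleted exons is not stated, so neither gene checks the deletion.

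The first question was whether RNA of the variant PRC1 subunits changed when cells were left with a Ring1B that carries I53S or I53A. Only *E2f6* among the 10 genes was called in mutant lines, and it rose by 0.64 (SE 0.10, n = 3 lines). As means of their probe sets, *Bcor*, *Yaf2* and *Pcgf5* also had positive values in each of the 3 mutant lines and in mock cells. *Mga*, *Pcgf6*, *Kdm2b* and *L3mbtl2* had negative values in each of them, and *Pcgf6* in both WT lines too. None of these genes passed the test. Single probe sets of *Pcgf5*, *Mga*, *Pcgf6* and *Kdm2b* had the other sign in some mutant lines. Over all genes limma called 6.46% in mutant lines at an adjusted p under 0.05 (4.91% as higher), so that 1 of 10 is near that share. At an unadjusted p under 0.05, 7 of the 10 members (*E2f6*, *Bcor*, *Yaf2*, *Mga*, *Pcgf1*, *Pcgf5* and *Pcgf6*) passed, against 23.7% of all genes. This share was not particular to them, since 6 of 10 canonical PRC1 subunits and 7 of 10 ESC markers passed too. Of the other subunits shared by variant complexes 4 of 18 passed, and of the housekeeping genes 0 of 6. The members' median change was 0.03, against -0.01 over all genes, and 5 of 10 lay above 0. The gene-level changes by line are drawn in the plot of members by line, and the fitted changes in the plot with intervals.

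**Figure D1:**
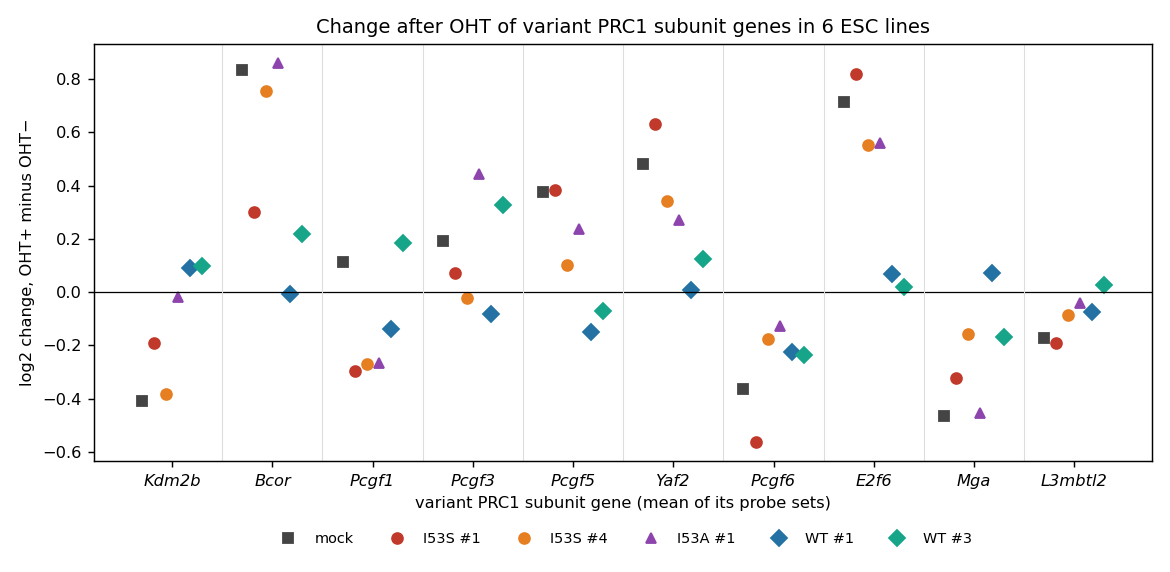
Log2 change on day 2 of OHT (y axis, OHT+ minus OHT-) of the 10 variant PRC1 subunit genes (x axis, mean of each gene's probe sets) in each of 6 ESC lines; 1 point is 1 line. *E2f6* lay between 0.55 and 0.82 in the mock and mutant lines and at 0.07 and 0.02 in WT lines.

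E2f6 is a repressor of the E2F family that binds DNA without the activation domain of other E2F proteins. Probe set 1448835_at read 9.52 in mock cells, 9.13, 9.57 and 9.48 in mutant lines and 8.61 and 8.29 in WT #1 and #3 on day 2. Before OHT it read 8.41 in mock cells, 8.07, 8.68 and 8.51 in mutant lines and 8.48 and 8.44 in WT lines. The 4 lines without a WT construct thus all read above both WT lines on day 2, while before OHT the WT readings lay inside the range of the others. Its change was 1.11 in mock cells, 1.06, 0.88 and 0.97 in mutant lines and 0.13 and -0.15 in WT lines. Fitted probe set by probe set, the mutant change was 0.97 (SE 0.11, adjusted p 0.0173, limma over 30374 probe sets, of which 3.76% were called), the only call among the 25 probe sets. The other *E2f6* probe set, 1437914_at, read 6.24 in mock cells, 6.40, 6.46 and 6.27 in mutant lines and 6.29 and 6.27 in WT lines on day 2, against 5.93 (mock), 5.82, 6.24 and 6.12 (mutant) and 6.29 and 6.08 (WT) before OHT. Its change was 0.31 in mock cells, 0.58, 0.22 and 0.15 in mutant lines and 0.00 and 0.19 in WT lines, which overlap, and its mutant change of 0.32 was not called (adjusted p 0.227). The 2 probe sets therefore had the same direction and unequal sizes.

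As the mean of both probe sets, *E2f6* read 7.88 in mock cells, 7.76, 8.01 and 7.88 in mutant lines and 7.45 and 7.28 in WT lines on day 2, against 7.17 (mock), 6.95, 7.46 and 7.32 (mutant) and 7.38 and 7.26 (WT) before OHT. The rise of 0.64 in mutant lines had an adjusted p of 0.0215 (95% interval 0.41 to 0.88). The call did not hold without the line as a block, where the adjusted p was 0.0534, and it was lost when any 1 mutant line was left out, with adjusted p of 0.0991 without I53S #1, 0.0888 without I53S #4 and 0.0878 without I53A. The size was 0.56 to 0.69 in those fits. In the mock line the change was 0.71 (adjusted p 0.104) and in WT lines 0.04 (adjusted p 0.971).

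**Figure D2:**
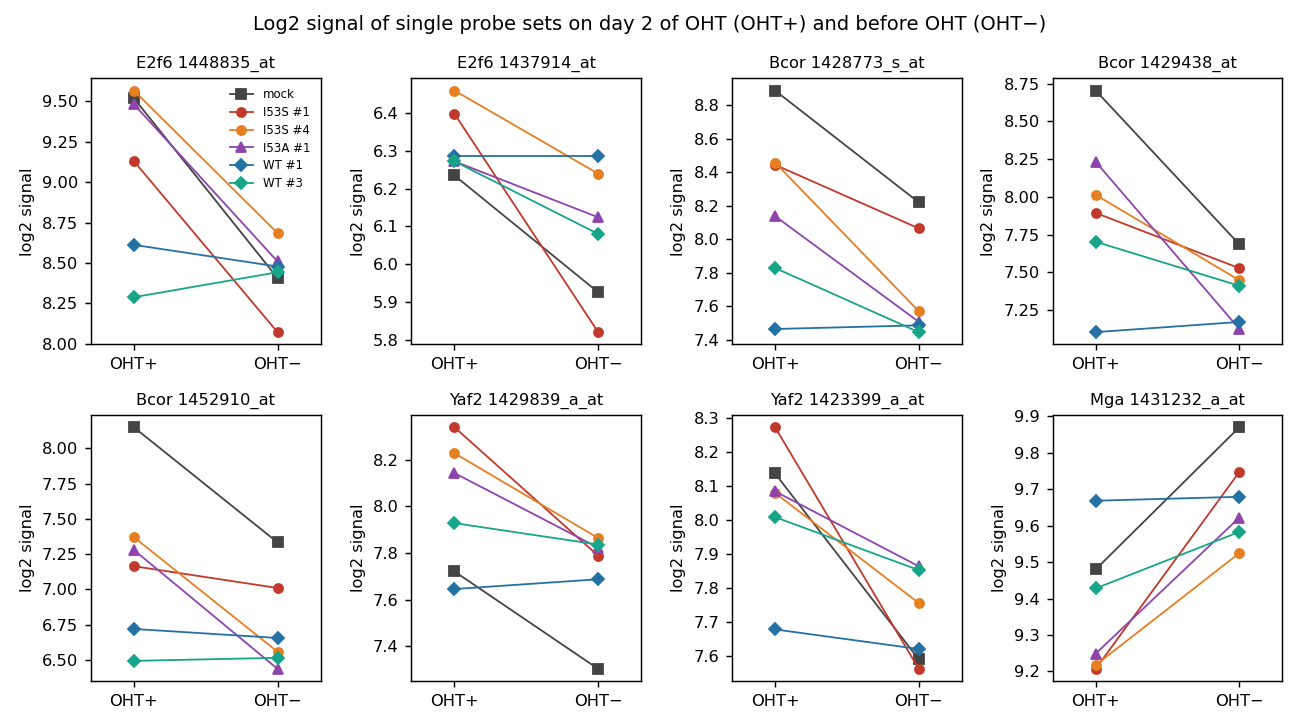
Log2 signal (y axis, a scale of its own in each panel) of 8 probe sets on day 2 of OHT (OHT+) and before OHT (OHT-), with 1 connected pair of points per ESC line. On day 2 the 4 lines without a WT construct read 9.13 to 9.57 for *E2f6* 1448835_at and the WT lines 8.61 and 8.29.

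The members of the Pcgf1 complex had changes of both signs. Bcor is the corepressor that bridges Pcgf1 to Kdm2b, and its 3 probe sets had changes of one sign in all lines without a WT construct. Probe set 1428773_s_at, whose suffix marks that it can bind several transcripts, read 8.89 in mock cells, 8.44, 8.46 and 8.14 in mutant lines and 7.47 and 7.83 in WT lines on day 2, against 8.22 (mock), 8.07, 7.57 and 7.51 (mutant) and 7.49 and 7.45 (WT) before OHT. Probe set 1429438_at read 8.70 in mock cells, 7.89, 8.01 and 8.23 in mutant lines and 7.10 and 7.70 in WT lines on day 2, against 7.68 (mock), 7.53, 7.45 and 7.12 (mutant) and 7.17 and 7.41 (WT) before OHT. All 4 lines without a WT construct thus read above both WT lines on day 2 with either probe set, and before OHT all 4 already did so with the first and all but I53A with the second. Probe set 1452910_at had changes of 0.82 in mock cells, 0.15, 0.81 and 0.84 in mutant lines and 0.06 and -0.02 in WT lines. For the gene, the changes were 0.83 in mock cells, 0.30, 0.76 and 0.86 in mutant lines and -0.01 and 0.22 in WT lines. The fitted mutant change of *Bcor* was 0.64 (SE 0.14), as large as that of *E2f6*, with an adjusted p of 0.0529, so it was not called. The I53S #1 line, with 0.30, was the lowest of the 3. The adjusted p fell under 0.05 without the block (0.0489), with arrays centred on their medians (0.0395), with a filter at the median (0.0227) and with trended and robust priors (0.0029). *Bcor* was not called when any 1 line was left out, where its mutant change was 0.53 to 0.81.

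Kdm2b is the CpG island binding protein of the Pcgf1 complex, and *Kdm2b* had gene-level changes of -0.41 in mock cells, -0.19, -0.38 and -0.02 in mutant lines and 0.09 and 0.10 in WT lines. Probe set 1452198_at read 9.77 in mock cells, 9.85, 9.81 and 9.82 in mutant lines and 10.25 and 10.28 in WT lines on day 2, against 10.25 (mock), 10.02, 10.34 and 9.95 (mutant) and 10.06 and 10.18 (WT) before OHT. With this probe set the lines did not overlap on day 2 and did before OHT. The other probe set, 1459861_s_at, read 10.64 in mock cells, 10.80, 10.88 and 11.00 in mutant lines and 10.96 and 10.96 in WT lines on day 2, which overlap, and its changes were -0.33 in mock cells, -0.22, -0.24 and 0.10 in mutant lines and -0.01 and 0.09 in WT lines. The fitted mutant change was -0.20 (SE 0.10, adjusted p 0.312). *Pcgf1*, which encodes the Pcgf protein of that complex and has 1 probe set, had changes of 0.11 in mock cells, -0.29, -0.27 and -0.27 in mutant lines and -0.14 and 0.19 in WT lines. The mutant change of -0.28 (SE 0.10) was not called (adjusted p 0.165), and the 3 mutant lines lay within 0.03 of each other while the mock line had the other sign. On the signals as deposited the mock value of *Pcgf1* was -0.21.

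Yaf2 takes the place of Rybp in variant PRC1, and *Rybp* was not among the genes tested. *Yaf2* probe set 1423399_a_at read 8.14 in mock cells, 8.27, 8.08 and 8.08 in mutant lines and 7.68 and 8.01 in WT lines on day 2, against 7.59 (mock), 7.56, 7.75 and 7.86 (mutant) and 7.62 and 7.85 (WT) before OHT. Probe set 1429839_a_at read 7.72 in mock cells, 8.34, 8.23 and 8.14 in mutant lines and 7.65 and 7.93 in WT lines on day 2, against 7.30 (mock), 7.79, 7.86 and 7.82 (mutant) and 7.69 and 7.84 (WT) before OHT. The mutant lines were above both WT lines on day 2 with either probe set, and the mock line only with the first. The gene-level changes were 0.48 in mock cells, 0.63, 0.34 and 0.27 in mutant lines and 0.01 and 0.12 in WT lines. The mutant change of 0.41 (SE 0.11) was not called (adjusted p 0.0822), but passed with a filter at the median (adjusted p 0.0353) and with trended and robust priors (0.0113). It did not pass when any 1 line was left out, with sizes of 0.31 to 0.49.

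*Pcgf3* and *Pcgf5*, whose products share the third kind of variant complex, had probe sets that differed among themselves. For *Pcgf3*, 1428423_at had changes of 0.21 in mock cells, -0.01, 0.09 and 0.27 in mutant lines and 0.12 and 0.26 in WT lines. The other *Pcgf3* probe sets ran from -0.90 to 0.73 (1428424_at, above the filter level on 8 of 12 arrays) and from -0.37 to 1.06 (1440203_at) over the lines, with both signs. The gene-level changes were 0.19 in mock cells, 0.07, -0.02 and 0.44 in mutant lines and -0.08 and 0.33 in WT lines. The mutant change of 0.16 (SE 0.14) was not called (adjusted p 0.521), and it was 0.03 without I53A and 0.26 without I53S #4. The mock value of 0.19 was -0.20 on the signals as deposited. For *Pcgf5*, 1429564_at had changes of 0.54 in mock cells, 0.12, 0.31 and 0.04 in mutant lines and -0.10 and -0.44 in WT lines. Probe set 1434666_at had changes of 0.14 in mock cells, -0.09, -0.46 and 0.13 in mutant lines and -0.20 and -0.28 in WT lines. The largest change was that of 1453636_at, above the filter level on 7 of 12 arrays, with 0.45 in mock cells, 1.13, 0.47 and 0.54 in mutant lines and -0.14 and 0.51 in WT lines. The gene's mutant change of 0.24 (SE 0.10) was not called (adjusted p 0.202). Fitted by probe set it was 0.15 for 1429564_at, -0.14 for 1434666_at and 0.71 for 1453636_at, so the dimmest probe set had the largest part in it.

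The remaining members of the Pcgf6 complex had negative mutant values. Mga is the scaffold that pairs with Max, and *Mga* probe set 1431232_a_at read 9.48 in mock cells, 9.21, 9.22 and 9.25 in mutant lines and 9.67 and 9.43 in WT lines on day 2, against 9.87 (mock), 9.75, 9.52 and 9.62 (mutant) and 9.68 and 9.58 (WT) before OHT. Its changes were -0.39 in mock cells, -0.54, -0.31 and -0.37 in mutant lines and -0.01 and -0.16 in WT lines, with no overlap between mutant and WT lines. Probe set 1434746_at also separated them, with -0.57 in mock cells, -0.34, -0.36 and -0.29 in mutant lines and 0.08 and 0.11 in WT lines. The other 3 *Mga* probe sets overlapped: 1422646_at had changes of -0.62 to -0.15 in mutant lines and of -0.27 and -0.58 in WT lines, and 1433012_at and 1442356_at were above the filter level on 2 and 10 of 12 arrays. As a gene *Mga* had changes of -0.31 in mutant lines (SE 0.10, adjusted p 0.147), -0.47 in mock cells (adjusted p 0.234) and -0.05 in WT lines. With the filter set at the median, which drops low probe sets, the mutant value was -0.40 with an adjusted p of 0.0258. With the main filter *Mga* was not called when any 1 line was left out, with mutant values of -0.39 to -0.24.

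*Pcgf6*, the Pcgf protein of that complex, had negative changes in all 6 lines as a mean of its probe sets. The values were -0.36 in mock cells, -0.56, -0.18 and -0.13 in mutant lines and -0.23 and -0.24 in WT lines. In I53A the probe sets had both signs, with 0.10 for 1424081_at, 0.30 for 1432108_at and -0.79 for 1454120_a_at. In every other line all of them were negative. The mutant (-0.29, SE 0.11, adjusted p 0.204) and WT (-0.23, SE 0.14, adjusted p 0.784) changes were not called. *L3mbtl2*, an MBT domain protein with 1 probe set, had the narrowest spread of the members, with -0.17 in mock cells, -0.19, -0.09 and -0.04 in mutant lines and -0.07 and 0.03 in WT lines. Its mutant change was -0.10 (SE 0.087, adjusted p 0.526).

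**Figure D3:**
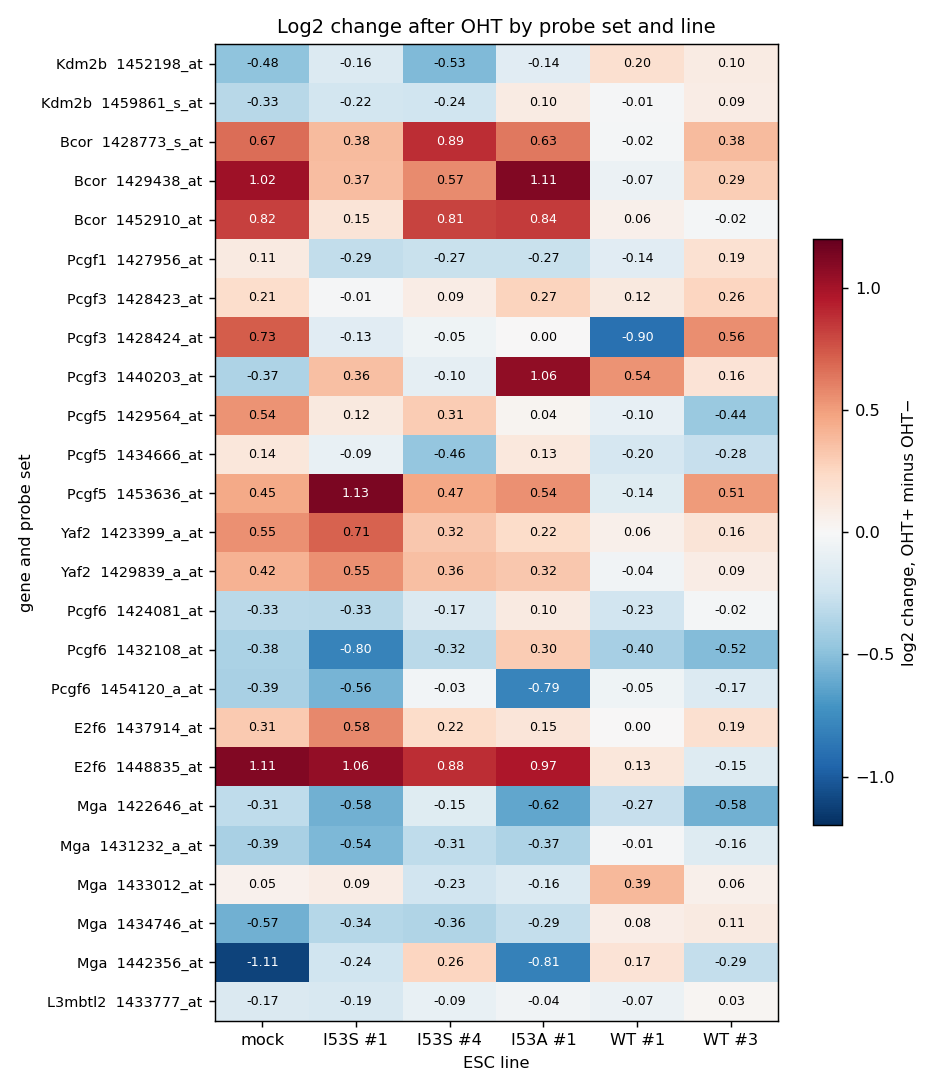
Log2 change on day 2 of OHT (colour and number in each cell, OHT+ minus OHT-) for each of the 25 probe sets (rows) in each ESC line (columns), from quantile normalized signals. *Mga* 1431232_a_at is negative in all 6 lines, and *Bcor* is positive for all 3 probe sets in the 4 lines without a WT construct.

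The second question was whether the members changed in the mock transfectant, left with no Ring1B, and in WT lines. In the mock line 0 of 10 members were called, against 1.67% of all genes, and 4 (*E2f6*, *Bcor*, *Yaf2* and *Mga*) had an unadjusted p under 0.05, against 19.9% of all genes. The median over the members was 0.15, against 0.00 over all genes. The mock class has 1 line, whose spread is taken from the other lines, and *E2f6* was called there with a filter at the median (adjusted p 0.0417). On the signals as deposited the mock change was 0.36 for *E2f6*, 0.47 for *Bcor*, 0.14 for *Yaf2* and 0.02 for *Pcgf5*, and -0.84 for *Kdm2b*, -0.81 for *Mga*, -0.74 for *Pcgf6* and -0.55 for *L3mbtl2*, with 0 members called. In the WT lines 0 of 10 members were called and 0 had an unadjusted p under 0.05, against 0% and 7.61% of all genes. The member changes in WT lines ran from -0.23 (*Pcgf6*) to 0.12 (*Pcgf3*), with a median of 0.03. The calls over all genes in mutant lines split into 807 higher and 255 lower, against 540 and 571 on the signals as deposited. In the mock line they split into 212 higher and 63 lower, against 175 and 747 as deposited.

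The third question was whether the changes differed between classes of line. For mutant minus WT lines 0 of 10 members were called, against 0% of all genes, and *E2f6* and *Bcor* had an unadjusted p under 0.05, against 12.6% of all genes. *E2f6* differed by 0.60 (SE 0.15, 95% interval 0.22 to 0.98, adjusted p 0.221) and *Bcor* by 0.53 (SE 0.21, 95% interval 0.01 to 1.06, adjusted p 0.394). For mock minus WT lines 0 members were called, against 0% of all genes, and the same genes, *E2f6* (0.67, adjusted p 0.26) and *Bcor* (0.73, adjusted p 0.333), had an unadjusted p under 0.05, against 14.4%. Both differences use the same WT arrays, so they are not independent. For mock minus mutant lines 0 members were called and 0 had an unadjusted p under 0.05, against 0% and 8.05% of all genes, with differences of 0.07 (95% interval -0.41 to 0.54) for *E2f6*, 0.20 (-0.47 to 0.86) for *Bcor* and 0.07 (-0.46 to 0.59) for *Yaf2*. On the signals as deposited these 3 differences were -0.18, -0.08 and -0.19. The changes of all 3 mutant lines lay above those of both WT lines for 4 members (*Pcgf5*, *Bcor*, *Yaf2* and *E2f6*), against 16.1% of all genes, and below them for 2 (*Pcgf1* and *Kdm2b*), against 15%. Before OHT, 0 members differed between mutant and WT lines at an adjusted or an unadjusted p under 0.05, against 0% and 5.25% of all genes, and the largest difference was -0.26 for *Pcgf6* (adjusted p 0.953).

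**Figure D4:**
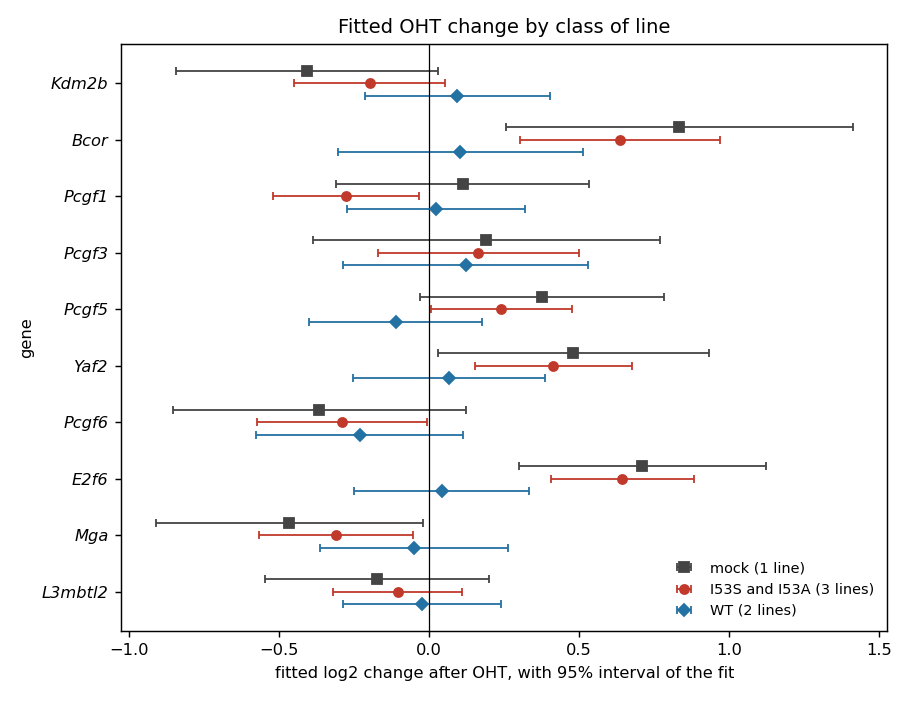
Fitted log2 change on day 2 of OHT (x axis) for each member (rows) in mock cells, the 3 mutant lines and the 2 WT lines, with bars for the 95% interval of the limma fit. The mutant interval of *E2f6* runs from 0.41 to 0.88 and its WT interval from -0.25 to 0.34.

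Of 14 germ cell genes known as targets of the Pcgf6 complex 12 were tested, and 7 were called as higher in mutant lines and 5 in mock cells, with 0 called as lower in either and 0 called in WT lines (2 at an unadjusted p under 0.05). Over all genes 4.91% were called as higher in mutant lines, 1.67% in either direction in mock cells and 0% in WT lines, where 7.61% had an unadjusted p under 0.05. Their median change was 0.92 in mutant lines, 1.64 in mock cells and 0.22 in WT lines, where the median over all genes was -0.01 (mutant), 0.00 (mock) and 0.00 (WT). *Slc25a31*, an ADP/ATP carrier of the testis, read 8.28 in mock cells, 8.59, 9.03 and 8.63 in mutant lines and 6.10 and 7.40 in WT lines on day 2, against 6.31 (mock), 6.44, 7.61 and 6.69 (mutant) and 5.77 and 7.15 (WT) before OHT. It rose by 1.84 in mutant lines (SE 0.15, adjusted p 0.00617) and 1.98 in mock cells (adjusted p 0.0404). *Ddx4*, the germ cell RNA helicase Vasa, read 10.27 in mock cells, 9.83, 10.12 and 10.20 in mutant lines and 8.15 and 8.88 in WT lines on day 2, against 7.59 (mock), 7.99, 8.98 and 8.77 (mutant) and 8.18 and 8.58 (WT) before OHT. It rose by 1.47 in mutant lines (adjusted p 0.00953) and 2.68 in mock cells (adjusted p 0.0329). On day 2 the lines without a WT construct all read above the WT lines for both genes.

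*Mael*, which acts in transposon silencing in the germ line, rose by 1.57 in mutant lines (adjusted p 0.0141), with 1.78 in mock cells (adjusted p 0.0741). *Tex101*, a surface protein of germ cells, had the largest mutant change of the list, 2.12 (SE 0.34, adjusted p 0.0252), and its WT lines had changes of 1.05 and -0.56. *Dazl*, an RNA-binding protein of germ cells, rose by 0.73 in mutant lines (adjusted p 0.0384) and 2.11 in mock cells (adjusted p 0.034). *Stk31* and *Taf7l* were the other genes called in both. For the list 7 genes had an unadjusted p under 0.05 for mutant minus WT lines, against 12.6% of all genes, and 0 were called, against 0%.

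The other shared subunits gave no call. Of 20 listed genes 18 were tested, 0 were called in any class, and 4 had an unadjusted p under 0.05 in mutant lines, 3 in mock cells and 0 in WT lines, against 23.7% (mutant), 19.9% (mock) and 7.61% (WT) of all genes. Their median change was -0.05 (mutant), -0.12 (mock) and -0.05 (WT). *Bcorl1*, a relative of Bcor, had the smallest p in mutant lines, with a change of 0.61 (SE 0.13, adjusted p 0.0513), and *Csnk2a1*, a catalytic subunit of casein kinase, had -0.30 (adjusted p 0.118). Of the subunits of canonical PRC1, 10 of 11 were tested and 2 were called, both higher, in the mutant lines and in mock cells, against 4.91% of all genes called as higher in mutant lines and 1.67% called in mock cells. *Phc2*, a Polyhomeotic protein, rose by 1.04 in mutant lines (adjusted p 0.00941) and 1.25 in mock cells (adjusted p 0.0445), with 0.37 in WT lines (adjusted p 0.609, unadjusted p 0.0315). *Bmi1*, a Pcgf protein of canonical PRC1, rose by 0.87 in mutant lines (adjusted p 0.0123) and 1.43 in mock cells (adjusted p 0.0366). The canonical subunits had changes of both signs, with 6 of the 10 above 0 in mutant lines (-0.47 to 1.04) and in mock cells (-0.55 to 1.43). The medians over these 10 canonical subunits were 0.10 in mutant lines, 0.23 in mock cells and 0.10 in WT lines, beside 0.03 (mutant), 0.15 (mock) and 0.03 (WT) for the variant PRC1 members.

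**Figure D5:**
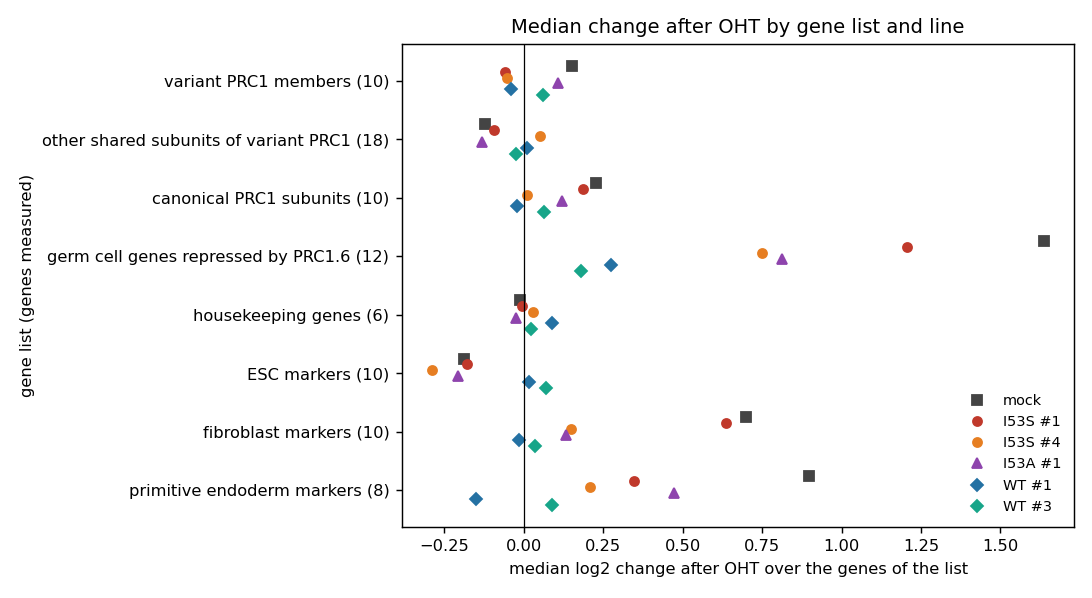
Median log2 change on day 2 of OHT (x axis) over the measured genes of each list (rows, number of genes in brackets) in each ESC line. The germ cell genes lie between 0.75 and 1.64 in the mock and mutant lines and at 0.27 and 0.18 in WT lines, and the variant PRC1 members between -0.06 and 0.15 in all 6 lines.

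Markers of other cells were followed in the same lines. Of 12 fibroblast markers 10 were tested, and their median change was 0.33 in mutant lines, 0.70 in mock cells and -0.05 in WT lines. Line by line the mutant medians were 0.64, 0.15 and 0.13, and in I53A 6 of the 10 lay above 0 (-1.03 to 0.75). *Thy1*, a surface protein of fibroblasts, was called in the mutant (0.68, adjusted p 0.0186) and mock (1.32, adjusted p 0.0366) lines. Over all genes 4.91% were called as higher in mutant lines and 1.67% in either direction in mock cells. The mean fibroblast level per array was 7.72 in mock cells, 6.41 to 7.59 in mutant lines and 5.98 to 6.58 in WT lines on day 2, against 7.07 (mock), 6.41 to 6.98 (mutant) and 6.08 to 6.58 (WT) before OHT. Of the 8 primitive endoderm markers, *Gata6* was called as higher in mutant lines (0.52, adjusted p 0.0297), against 4.91% of all genes. In mock cells *Gata6* (1.80, adjusted p 0.0322) and *Foxa2* (1.88, adjusted p 0.0329), transcription factors of endoderm, were called, against 1.67%. Fitted mutant changes were positive for 7 of the 8, and *Gata4* had -0.27, 0.10 and -0.39 in mutant lines. The mean level of the 8 markers was 5.76 in mock cells, 5.55 to 5.90 in mutant lines and 4.81 to 5.39 in WT lines on day 2, against 4.69 (mock), 5.08 to 5.63 (mutant) and 4.96 to 5.28 (WT) before OHT. *Klf4* was the 1 ESC marker of 10 called (0.55 in mutant lines, adjusted p 0.0354), against 4.91% of all genes called as higher there. The ESC markers had medians of -0.24 in the mutant, -0.19 in the mock and 0.04 in WT lines. In mutant lines only 3 of the 10 lay above 0 (-0.37 to 0.55), and 7 had an unadjusted p under 0.05, against 23.7% of all genes. Of the 6 housekeeping genes tested, 0 were called, 0 had an unadjusted p under 0.05 in mutant lines, and the median was -0.01. The part of these other cells in the changes of *E2f6*, *Bcor* and *Yaf2* was not tested. In RNA of whole cultures, fewer cells of a type and less RNA per cell cannot be told apart.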

How the data were processed

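The values that the authors deposited are log2 signals of each probe set on each array. The submitters' processing notes name Affymetrix Expression Console and RMA, whereas the supplementary methods describe MAS5 signals and quantile normalization. Versions are not given in the sources used here. The deposited distributions differed between arrays, so the 45101 probe sets were quantile normalized here. This could remove a true shift common to most genes. After 64 controls were left out, 34945 of 45037 probe sets had 1 gene symbol (932 had several, 9160 none). Symbols matched the mouse gene table for 18145 genes and not for 48. Probe sets with a highest signal above 3.94, the 30th percentile, were kept and averaged per gene (30374 probe sets, 16432 genes).

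All arrays were fitted in R 4.3.3 with limma 3.58.1 (lmFit, eBayes, two-sided, 3 residual and 2.79 prior degrees of freedom), blocked by line, and the effect of OHT was estimated separately for mock, mutant and WT lines. P-values were adjusted over all genes by Benjamini and Hochberg and called under 0.05. They cover only the spread among these lines, and the mock line is assumed to vary like the others. The 2 arrays of a line are paired because they come from the same cell line. Their deviations from the class means correlated at 0.27 for WT lines and 0.36 to 0.43 for mutant lines. Precision is limited by how few arrays there are.

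The members and lists were chosen with earlier results of these data known. The genes named are every member, *Rnf2* and *Ring1*, and for each other list up to 4 called genes with the largest change (or, where no gene was called, the 2 smallest p in mutant lines). *Dazl*, *Stk31*, *Taf7l*, *Stag3*, *Sycp3*, *Tdrd1* and *Hormad1* were added after their values were seen, as were the medians, ranges and some counts of other lists. Alternatives were signals as deposited, arrays centred on their medians, each probe set on its own (counts only), the brightest probe set of a gene, no block, unfiltered data, a stricter filter (mean signal above the overall median), the I53S lines alone, trended and robust priors, and each line left out.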

Additional observations from a re-analysis of the deposited data

How the results depend on the processing

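With 1 array per line and time, single genes stand close to the threshold, and a call depends on how many genes are called with it. For the mutant lines 1062 genes were called, against 563 without the replicate block, 1777 with the filter at the median, 2219 with trended and robust priors and 153 with the I53S lines alone. The members called were then 1, 4, 3 and 0, and 2 with arrays centred on their medians. For the mock line 275 genes were called, against 922 as deposited, 97 without the replicate block, 0 with each probe set on its own, 883 with the filter at the median, 1340 with trended and robust priors and 0 with the I53S lines alone, and the members called were 1 with that filter and 2 with those priors. Without the block the other counts of called genes stayed at 0.

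Where 0 genes were called, the filter at the median and the trended and robust priors gave 47 and 272 genes for mutant minus WT lines and 17 and 453 for mock minus WT lines. The trended and robust priors gave 1 gene for mock minus mutant lines, and the signals as deposited gave 41 before OHT. Leaving out 1 line at a time gave 153 to 1062 genes and 0 to 1 members in the mutant lines, and 0 genes in the mock line whichever other line was left out. The upper count of 1062 genes is that without the mock line, which leaves the mutant fit as it was. The 1 member was *E2f6*, called without the mock line and also without either WT line. The cause of the lower counts was not tested, except that leaving out a mutant or WT line leaves fewer degrees of freedom.

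Of 432 values of single members under an alternative, 407 kept their direction and their side of the threshold, 10 passed it, 5 no longer did and 10 changed sign. Part of these values could not change in size. A mock value stays the same whichever other line is left out, and mutant and WT values stay when the mock line is left out. The trended and robust priors alter no size, and the I53S lines alone repeat the sizes found without I53A. The 407 are therefore not separate checks. The signs that changed were those of *Pcgf1* (-0.21) and *Pcgf3* (-0.20) in the mock line as deposited, *Pcgf3* there with the filter at the median (-0.077), *E2f6* in the WT lines by its probe set with the highest mean (-0.010), *Bcor* in the WT lines (-0.0084 without WT #3, 0.22 without WT #1), and, for mock minus mutant lines, *E2f6* (-0.18), *Bcor* (-0.077) and *Yaf2* (-0.19) as deposited and *Yaf2* with the I53S lines alone (-0.0052), where leaving out 1 line at a time gave -0.0052 to 0.175.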
